A study of Mus musculus with 20 samples.

Results

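The gene sets described here carry the names of neutrophils, granulocytes, monocytes, macrophages, dendritic cells or the myeloid lineage. They were taken by name from the authors' gene set enrichment reports for 7 comparisons: a set was a member if its name held one of those words, and not if it held LEUKEMIA, AML, INTERFERON, IFN, LPS or TNF. Of 3886 sets listed in any report, 33 were members, and another 5 with a cell word were left out by the excluded words. Of the 33 names, 10 end in DN, which marks genes that were lower in the source experiment, and these are reported apart from the other 23. Of the 23, 5 were granulocytic by name, 7 monocytic (monocyte or macrophage), 6 dendritic and 5 named only for the myeloid lineage. Their sizes ran from 16 to 395 genes, DN sets included, with a median of 58.

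The study sequenced RNA of cells labelled myeloid from bone marrow and spleen of adult C57BL/6 mice, and of 2 mouse melanoma lines in culture. Bone marrow came from B16F10-bearing mice (3 libraries), YUMM3.3-bearing mice (2 libraries) and healthy mice (3 libraries). Spleen came from the same 3 conditions with 2 libraries each. The YUMM3.3 and B16F10 lines, grown on plates for 4 days, had 3 libraries each. B16F10 is a spontaneous C57BL/6 melanoma line selected for spread to the lung, whereas YUMM3.3 was derived from a melanoma of mice engineered to develop one, on the C57BL/6 background. All myeloid samples, healthy ones included, were prepared by depletion of cells carrying CD3e, a T cell marker. That step does not remove B cells, erythroid cells or platelets, and no positive selection for a myeloid marker is given in the sources used here. No value per library or per gene was analysed here, so the labelled cell type could not be checked against marker genes, and sequencing depth is unknown.

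Neutrophils and monocytes both arise in bone marrow from granulocyte and monocyte progenitors. The transcription factor C/EBPα directs commitment to the granulocyte branch, and maturing neutrophils fill successive kinds of granules with antimicrobial and matrix-degrading proteins. Monocytes enter tissues and become macrophages or certain dendritic cells, which take up particles and, for dendritic cells, present antigen after maturation. In mice with tumours, marrow and spleen are known sites of expanded production of neutrophils and monocytes. In bulk RNA, a lower set can come from fewer cells of a type or from less RNA per cell, and these cannot be told apart.

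Every value given for a set is its normalised enrichment score (NES), which says how strongly the set's genes gather at one end of the authors' list of genes ranked by a comparison, scaled for set size. It is signed here so that a positive NES means higher in the first-named group, with the direction taken from the group named first in each report. A set is called higher or lower at a deposited false discovery rate (FDR) q below 0.05. The smallest NES size that was called ran from 1.57 to 1.79 over the 14 reports. The q values do not measure the spread between animals: the smallest nonzero nominal p listed, 0.00103, is below what relabelling 2 or 3 libraries a group can give. Each NES is 1 value per set and comparison, with no replicate error. Sets share genes, their member genes were not analysed here, and sets are not independent of each other.

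**Figure D1:**
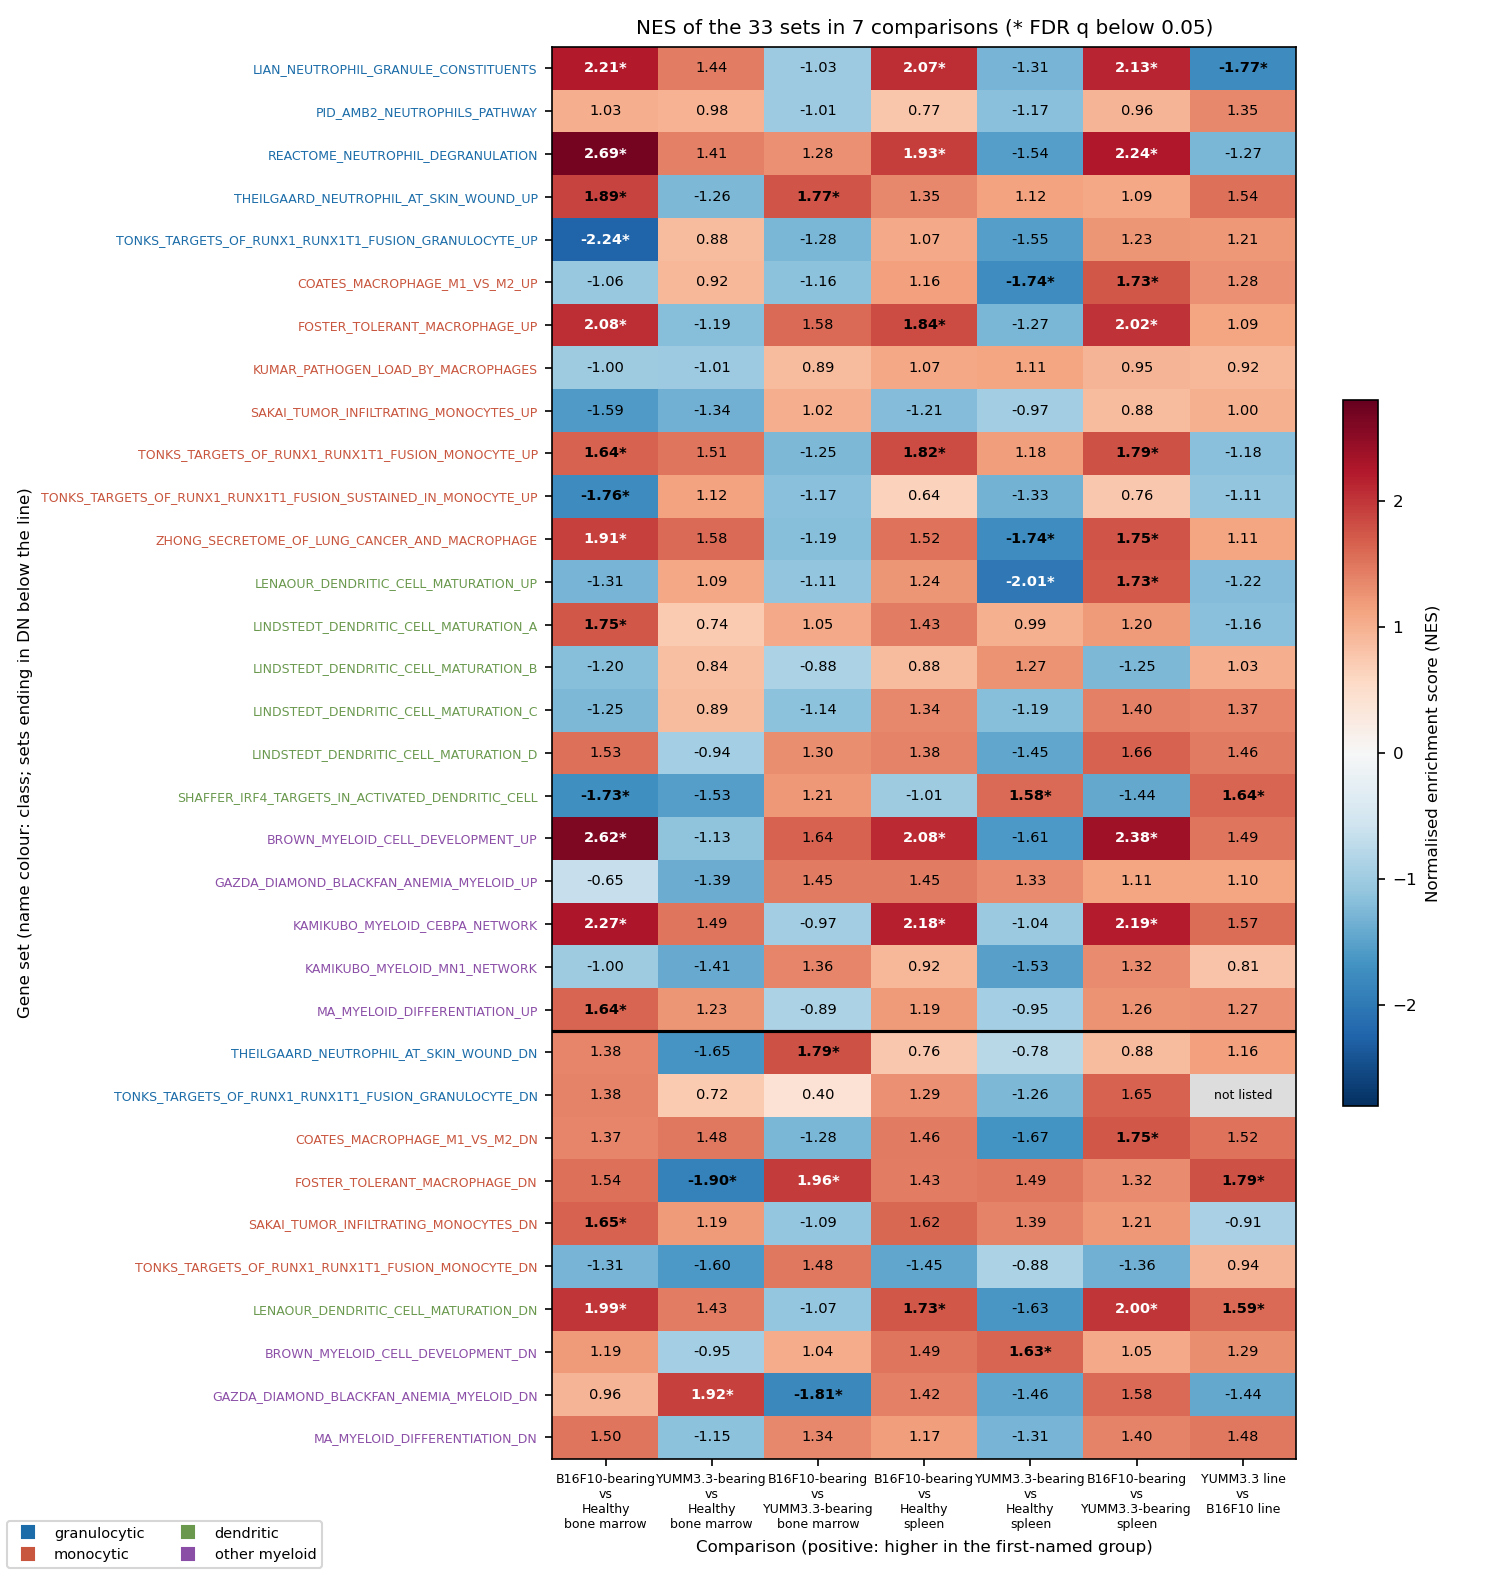
NES of the 33 sets (rows, grouped by class, DN sets below the line) in the 7 comparisons (columns), where red and positive mean higher in the first-named group and * marks an FDR q below 0.05. The marked cells gather in the columns for B16F10-bearing against healthy bone marrow (10 higher and 3 lower of the 23 upper sets) and B16F10-bearing against YUMM3.3-bearing spleen (9 higher), while YUMM3.3-bearing against healthy bone marrow has none among the 23.

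Sets for neutrophil granules and for C/EBPα were higher in B16F10-bearing than in healthy bone marrow. REACTOME_NEUTROPHIL_DEGRANULATION, 395 genes for the release of granule and vesicle contents, scored 2.69 in the authors' deposited table, place 7 of the 2182 sets on that side. LIAN_NEUTROPHIL_GRANULE_CONSTITUENTS, 23 genes for proteins stored in the granules, reached 2.21 in the authors' deposited table (FDR q 5.91e-05). The third granulocytic set that was higher, THEILGAARD_NEUTROPHIL_AT_SKIN_WOUND_UP, holds genes raised in human neutrophils that have migrated into a wound, and the authors' deposited table gave it 1.89 (FDR q 0.0053).

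A single granulocytic set, TONKS_TARGETS_OF_RUNX1_RUNX1T1_FUSION_GRANULOCYTE_UP, was lower in marrow of B16F10-bearing mice. It holds genes raised by a leukaemia fusion protein in human cells of the granulocyte lineage and was listed at -2.24 in the authors' deposited table, place 12 of 1701 on the lower side. Its genes are the fusion's targets and were not chosen as markers of mature granulocytes. The fifth set, PID_AMB2_NEUTROPHILS_PATHWAY, for signalling by the neutrophil adhesion receptor Mac-1, was at 1.03 in the authors' deposited table and was not called.

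Among sets named for the myeloid lineage, those of development and C/EBPα led in the same comparison. BROWN_MYELOID_CELL_DEVELOPMENT_UP, genes that rise as myeloid cells develop, scored 2.62 in the authors' deposited table, place 18 of 2182. The authors' deposited table put KAMIKUBO_MYELOID_CEBPA_NETWORK, a network of 26 genes around C/EBPα, at 2.27 and MA_MYELOID_DIFFERENTIATION_UP at 1.64 (FDR q 0.0352). The companion network around MN1, a transcriptional coactivator known as a leukaemia oncogene, was not called.

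Monocyte and macrophage sets moved in both directions in B16F10-bearing marrow. FOSTER_TOLERANT_MACROPHAGE_UP, from macrophages made tolerant by repeated endotoxin, was higher, scoring 2.08 in the authors' deposited table (FDR q 0.000585). ZHONG_SECRETOME_OF_LUNG_CANCER_AND_MACROPHAGE, proteins secreted by lung cancer cells and macrophages, followed at 1.91 in the authors' deposited table, and TONKS_TARGETS_OF_RUNX1_RUNX1T1_FUSION_MONOCYTE_UP was at 1.64. The set of fusion targets sustained in monocytes, TONKS_TARGETS_OF_RUNX1_RUNX1T1_FUSION_SUSTAINED_IN_MONOCYTE_UP, was lower, at -1.76 in the authors' deposited table (FDR q 0.0327). As with the granulocyte set of that fusion, the genes of both monocyte sets are its targets and were not chosen as markers of monocytes. Not called were COATES_MACROPHAGE_M1_VS_M2_UP, genes higher in inflammatory M1 than in M2 macrophages, at -1.06 in the authors' deposited table, and SAKAI_TUMOR_INFILTRATING_MONOCYTES_UP at -1.59.

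Of the 6 dendritic cell sets in that comparison, 1 was higher and 1 lower. LINDSTEDT_DENDRITIC_CELL_MATURATION_A, 1 of 4 clusters of genes with different courses in maturing dendritic cells, was at 1.75 in the authors' deposited table (FDR q 0.0167). Clusters B, C and D were at -1.20, -1.25 and 1.53 in the authors' deposited table, with none called. SHAFFER_IRF4_TARGETS_IN_ACTIVATED_DENDRITIC_CELL, targets of a transcription factor of lymphocytes and dendritic cells, was lower at -1.73 in the authors' deposited table (FDR q 0.0401).

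In all, 10 of the 23 sets were higher and 3 lower in B16F10-bearing than in healthy bone marrow. Over all 3883 sets listed, 20.1% were higher and 5.00% lower. The median NES of the 23 was 1.03, against 0.956 for all sets, so the medians were close while the share of called sets was 43.5% among the 23. A family-wise p below 0.05, a stricter call, kept 4 higher and 1 lower, beside 4.82% and 0.850% of all sets.

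Bone marrow of YUMM3.3-bearing mice gave no call among the 23 sets, in either direction, while 9.68% of all sets were higher and 6.52% lower than in healthy marrow. At FDR q below 0.25, 5 of the 23 were higher and 4 lower, beside 19.9% and 20.1% of all sets, which is near those shares. LIAN_NEUTROPHIL_GRANULE_CONSTITUENTS was at 1.44 in the authors' deposited table, REACTOME_NEUTROPHIL_DEGRANULATION at 1.41 and KAMIKUBO_MYELOID_CEBPA_NETWORK at 1.49, all on the higher side with FDR q from 0.108 to 0.157. BROWN_MYELOID_CELL_DEVELOPMENT_UP, by contrast, was at -1.13 and THEILGAARD_NEUTROPHIL_AT_SKIN_WOUND_UP at -1.26 in the authors' deposited table. The ends of the 23 in this comparison were ZHONG_SECRETOME_OF_LUNG_CANCER_AND_MACROPHAGE at 1.58 and SHAFFER_IRF4_TARGETS_IN_ACTIVATED_DENDRITIC_CELL at -1.53 in the authors' deposited table.

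Set directly against each other, B16F10-bearing and YUMM3.3-bearing marrow differed in 1 of the 23 sets. THEILGAARD_NEUTROPHIL_AT_SKIN_WOUND_UP was higher with B16F10, at 1.77 in the authors' deposited table (FDR q 0.0253). None of the 23 was lower, while 8.09% of all sets were higher and 8.40% lower. BROWN_MYELOID_CELL_DEVELOPMENT_UP lay just outside the threshold, at 1.64 with an FDR q of 0.0518 in the authors' deposited table. The granule sets were near 1 in size and of opposite sign: the authors' deposited table gave LIAN_NEUTROPHIL_GRANULE_CONSTITUENTS -1.03 and REACTOME_NEUTROPHIL_DEGRANULATION 1.28. The 3 comparisons of a tissue share libraries, so their values stand side by side and do not count as repeats of each other.

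**Figure D2:**
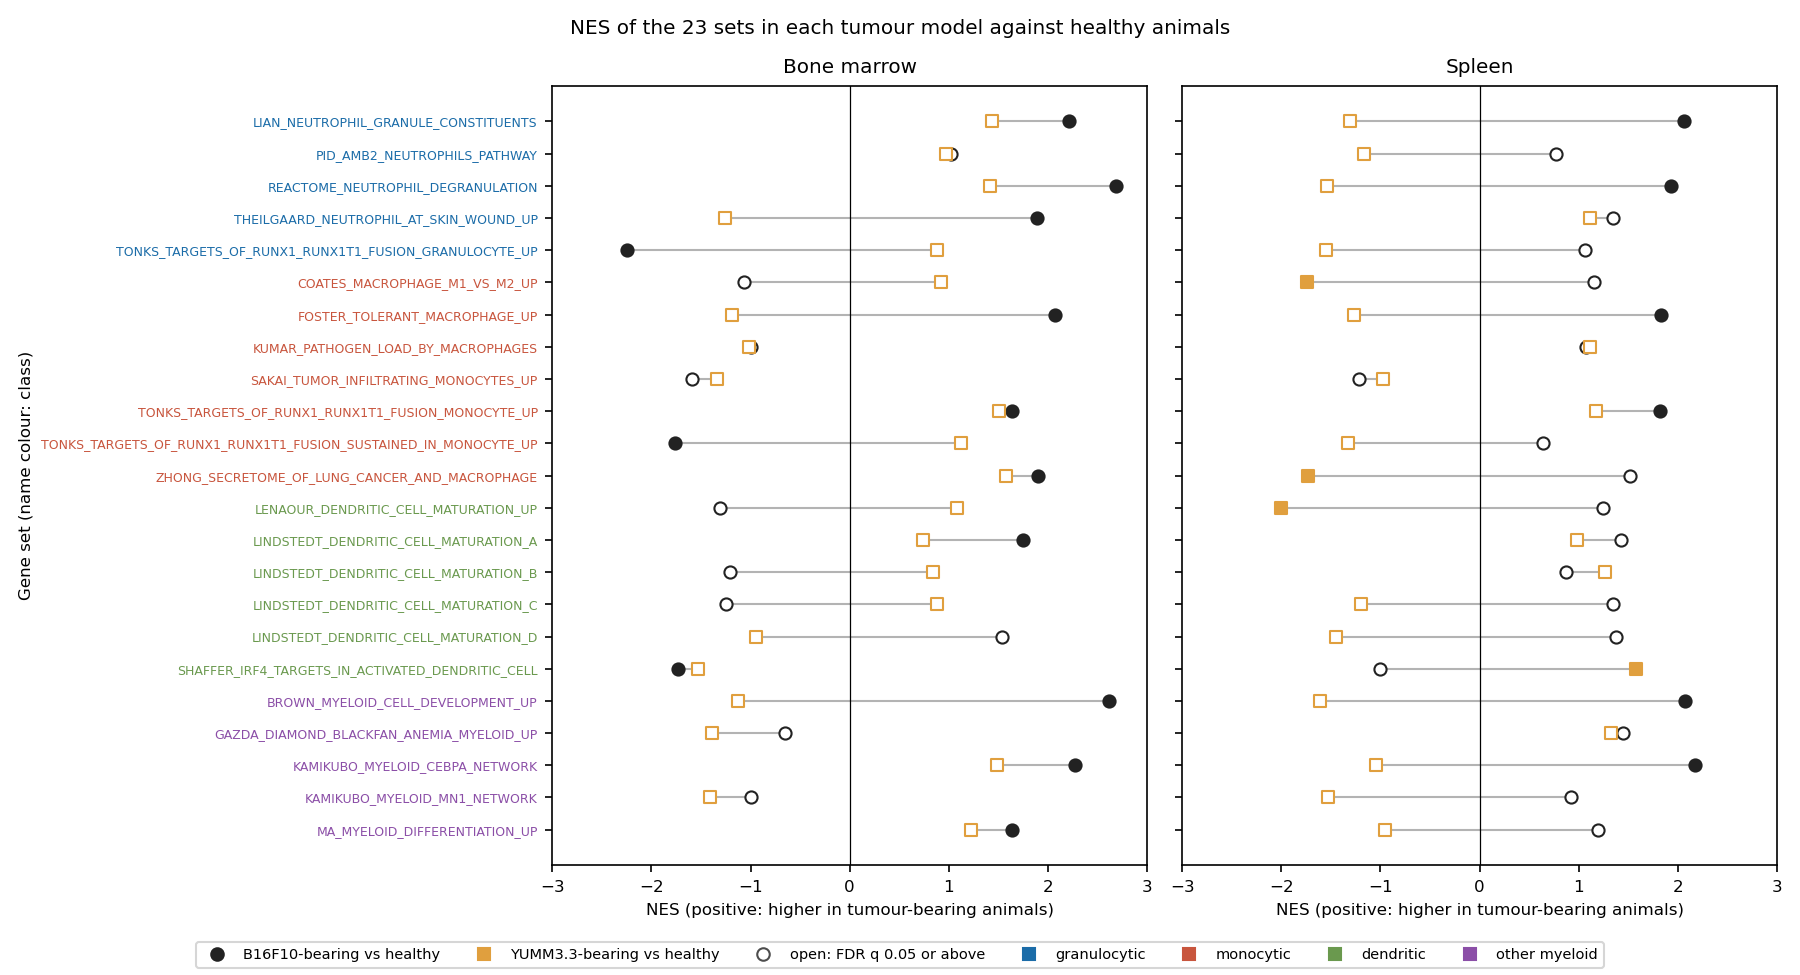
NES of the 23 sets in B16F10-bearing (circles) and YUMM3.3-bearing (squares) against healthy animals, in bone marrow (left) and spleen (right), with filled marks for an FDR q below 0.05 and set names coloured by class. In spleen 15 of 23 sets are positive for B16F10 and negative for YUMM3.3, and 1 is the other way round, while in bone marrow these counts are 4 and 6. Of all listed sets, 74.7% are positive for B16F10 and 48.3% for YUMM3.3 in spleen, and 56.2% and 53.1% in bone marrow. The share of all sets with opposite signs was not computed.

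In spleen of B16F10-bearing mice the granule, C/EBPα and development sets were again higher than in healthy mice. The authors' deposited table gave KAMIKUBO_MYELOID_CEBPA_NETWORK a score of 2.18 (FDR q 8.69e-06), BROWN_MYELOID_CELL_DEVELOPMENT_UP 2.08 and LIAN_NEUTROPHIL_GRANULE_CONSTITUENTS 2.07. REACTOME_NEUTROPHIL_DEGRANULATION was at 1.93 in the authors' deposited table (FDR q 0.00148). Of the monocytic sets, FOSTER_TOLERANT_MACROPHAGE_UP reached 1.84 and TONKS_TARGETS_OF_RUNX1_RUNX1T1_FUSION_MONOCYTE_UP 1.82 in the authors' deposited table. No dendritic cell set was called, with values from -1.01 for SHAFFER_IRF4_TARGETS_IN_ACTIVATED_DENDRITIC_CELL to 1.43 for LINDSTEDT_DENDRITIC_CELL_MATURATION_A in the authors' deposited table.

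That made 6 of the 23 sets higher and 0 lower in B16F10-bearing spleen, beside 16.6% of all sets higher and 1.60% lower. The stricter family-wise p kept 3 of the 6 and called none lower, beside 5.25% higher and 0.489% lower over all sets. A positive NES was listed for 21 of the 23 sets, and for 74.7% of all sets in this comparison, so most sets of any kind lay on the higher side.

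In spleen of YUMM3.3-bearing mice 3 of the 23 sets were lower than in healthy spleen and 1 was higher. LENAOUR_DENDRITIC_CELL_MATURATION_UP, named for dendritic cell maturation, was lowest at -2.01 in the authors' deposited table (FDR q 0.00665), place 35 of 2007. COATES_MACROPHAGE_M1_VS_M2_UP and ZHONG_SECRETOME_OF_LUNG_CANCER_AND_MACROPHAGE were both lower at -1.74 in the authors' deposited table (FDR q 0.0394 and 0.0411). The set that was higher was SHAFFER_IRF4_TARGETS_IN_ACTIVATED_DENDRITIC_CELL, at 1.58 in the authors' deposited table (FDR q 0.0435). The DN counterparts of 2 lower sets lay on the same side as their UP sets, without a call. They were COATES_MACROPHAGE_M1_VS_M2_DN at -1.67 (FDR q 0.0574) and LENAOUR_DENDRITIC_CELL_MATURATION_DN at -1.63 (FDR q 0.0654) in the authors' deposited table. Over all sets 5.31% were lower and 15.6% higher, so over all sets more were higher than lower, and among the 23 more were lower. With the stricter family-wise p, none of these 4 calls was made, beside 0.335% lower and 6.85% higher over all sets.

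Granule and C/EBPα sets were on the lower side in YUMM3.3-bearing spleen without passing the threshold. The authors' deposited table listed REACTOME_NEUTROPHIL_DEGRANULATION at -1.54 (FDR q 0.0969), LIAN_NEUTROPHIL_GRANULE_CONSTITUENTS at -1.31 (0.22), BROWN_MYELOID_CELL_DEVELOPMENT_UP at -1.61 (0.0718) and KAMIKUBO_MYELOID_CEBPA_NETWORK at -1.04 (0.523). Only THEILGAARD_NEUTROPHIL_AT_SKIN_WOUND_UP among the 5 granulocytic sets was on the higher side, at 1.12 in the authors' deposited table and not called. At FDR q below 0.25, 11 of the 23 sets were lower and 2 higher, beside 969 (25%) lower and 903 (23.3%) higher of all 3883 sets.

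The direct comparison of B16F10-bearing with YUMM3.3-bearing spleen gave 9 of the 23 sets (39.1%) higher and 0 lower. Over all sets 9.63% were higher and 1.47% lower. BROWN_MYELOID_CELL_DEVELOPMENT_UP was at 2.38 in the authors' deposited table, place 5 of the 2826 sets on that side. REACTOME_NEUTROPHIL_DEGRANULATION followed at 2.24, place 22, then KAMIKUBO_MYELOID_CEBPA_NETWORK at 2.19, place 30, and LIAN_NEUTROPHIL_GRANULE_CONSTITUENTS at 2.13, place 40, in the authors' deposited table. These 4 sets were the ones that also met the family-wise p below 0.05, which 1.42% of all sets met on the higher side and 0.386% on the lower.

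Macrophage sets, both sets of an M1 and M2 pair included, were higher together in that comparison. FOSTER_TOLERANT_MACROPHAGE_UP scored 2.02 in the authors' deposited table, and the M1 set COATES_MACROPHAGE_M1_VS_M2_UP 1.73. Its counterpart for genes higher in M2 macrophages, COATES_MACROPHAGE_M1_VS_M2_DN, was higher as well, at 1.75 in the authors' deposited table. TONKS_TARGETS_OF_RUNX1_RUNX1T1_FUSION_MONOCYTE_UP was at 1.79 and ZHONG_SECRETOME_OF_LUNG_CANCER_AND_MACROPHAGE at 1.75 in the authors' deposited table. The dendritic cell set that was higher, LENAOUR_DENDRITIC_CELL_MATURATION_UP, was at 1.73 in the authors' deposited table, and SHAFFER_IRF4_TARGETS_IN_ACTIVATED_DENDRITIC_CELL was lowest of the 23 at -1.44, not called.

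**Figure D3:**
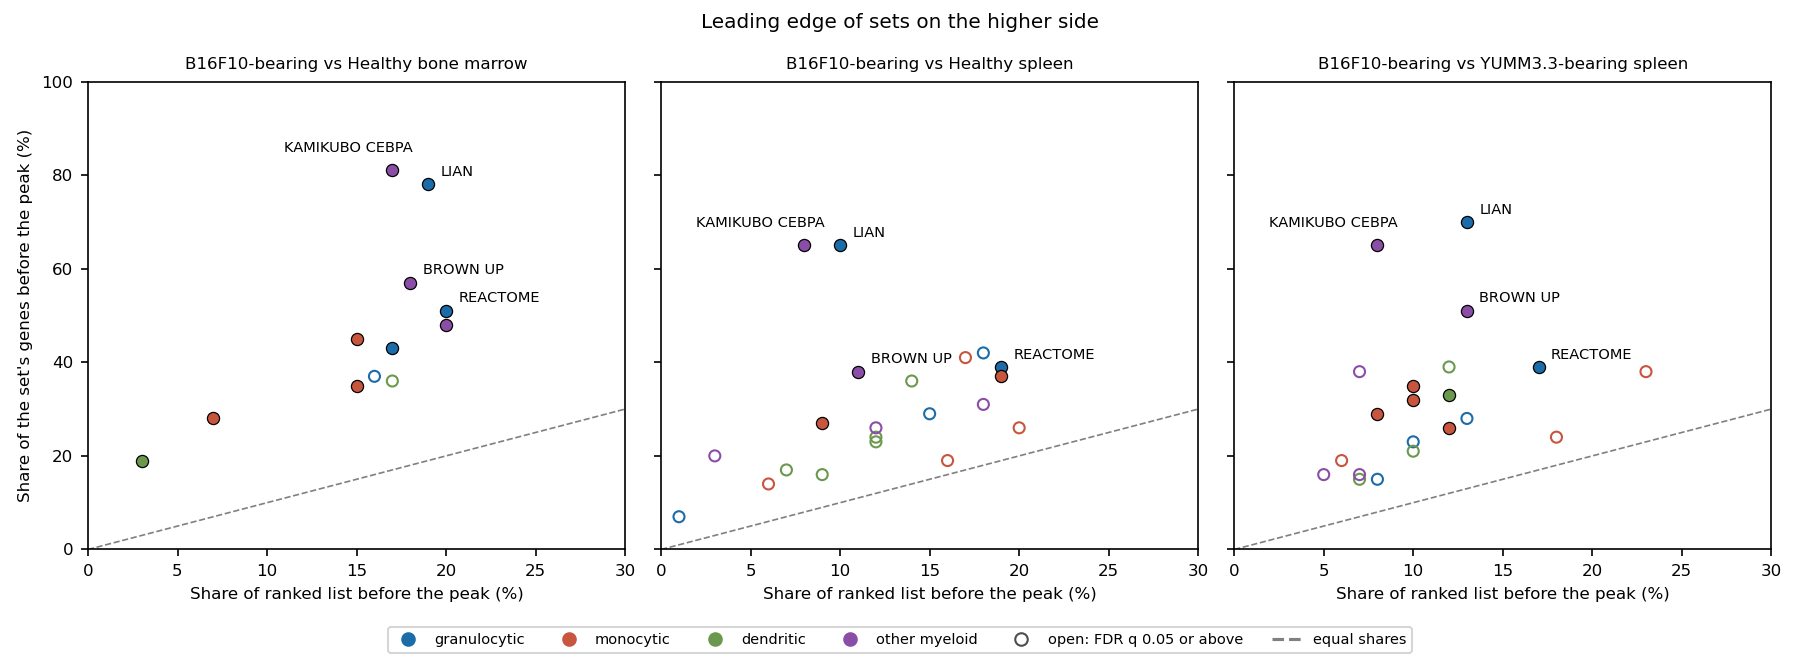
For each of the 23 sets on the higher side of 3 comparisons, the share of its genes that lie before the peak of the running score (vertical axis, %) against the share of the whole ranked list before that peak (horizontal axis, %), with filled points for an FDR q below 0.05. KAMIKUBO_MYELOID_CEBPA_NETWORK and LIAN_NEUTROPHIL_GRANULE_CONSTITUENTS stand highest in each panel, at 65% to 81% of their genes within the first 8% to 19% of the list.

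How much of each set carried its score was read from the leading edge, the genes met before the running score peaks. In B16F10-bearing against healthy marrow, 81% of the genes of KAMIKUBO_MYELOID_CEBPA_NETWORK lay in the first 17% of the ranked list, and 78% of LIAN_NEUTROPHIL_GRANULE_CONSTITUENTS in the first 19%, in the authors' deposited table. BROWN_MYELOID_CELL_DEVELOPMENT_UP had 57% in the first 18% and REACTOME_NEUTROPHIL_DEGRANULATION 51% in the first 20%, again in the authors' deposited table. A call could also rest on few genes: LINDSTEDT_DENDRITIC_CELL_MATURATION_A had 19% of its 53 genes within the first 3% of the list in the authors' deposited table.

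The same small sets led in spleen. Against healthy spleen, 65% of the C/EBPα network lay in the first 8% of the list and 65% of the granule constituents in the first 10% in the authors' deposited table, both for B16F10-bearing mice. Against YUMM3.3-bearing spleen these shares were 65% in the first 8% and 70% in the first 13% in the authors' deposited table. REACTOME_NEUTROPHIL_DEGRANULATION had 39% in both spleen comparisons, within the first 19% and 17% of the list in the authors' deposited table. In YUMM3.3-bearing against healthy spleen, where it was on the lower side, its leading edge held 26% of its genes in the authors' deposited table.

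**Figure D4:**
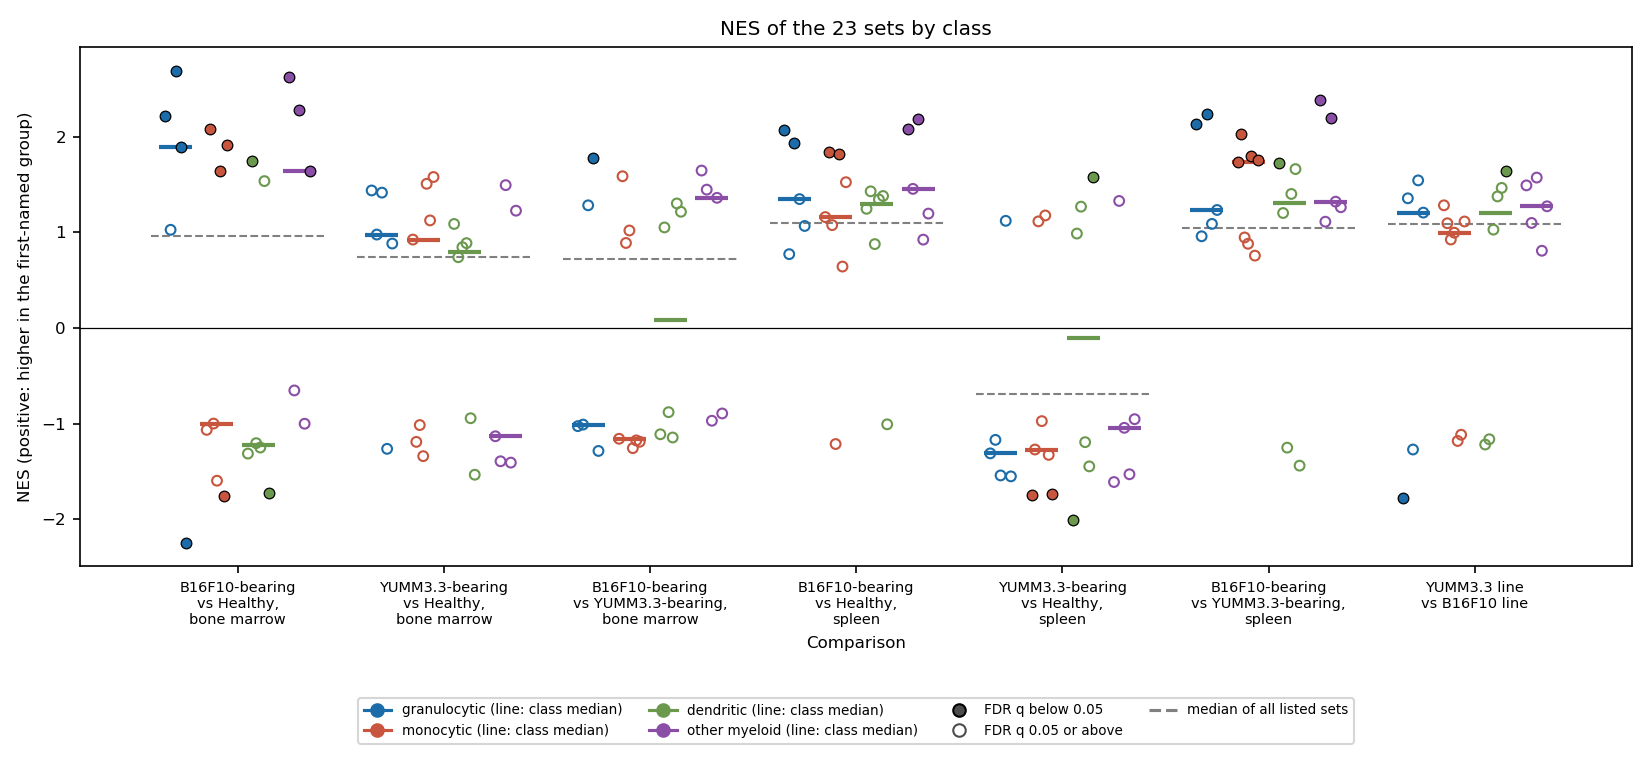
NES of the 23 sets by class in each comparison, with filled points for an FDR q below 0.05, a short coloured line at each class median and a dashed line at the median of all listed sets. Granulocytic and monocytic medians lie on opposite sides of 0 in B16F10-bearing against healthy bone marrow (1.89 and -0.998) and on the same side in the other 6 comparisons.

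Granulocytic and monocytic sets were then set against each other as classes. In B16F10-bearing against healthy marrow the granulocytic median NES was 1.89 and the monocytic median -0.998, a difference of 2.89. This gap rested on where the middle set fell, since an NES near 0 is rare and 4 of the 5 granulocytic but 3 of the 7 monocytic sets were positive. Limited to sets of 25 to 200 genes, which drops both granule sets and 2 monocytic ones, the difference was -0.616. Without the sets of the RUNX1-RUNX1T1 fusion, an alternative chosen after seeing the data, it was 3.05.

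In the other comparisons the medians of both classes were close. They were 0.976 granulocytic and 0.924 monocytic in YUMM3.3-bearing against healthy marrow, and -1.01 and -1.16 in B16F10-bearing against YUMM3.3-bearing marrow. For spleen the granulocytic and monocytic medians were 1.35 and 1.16 in B16F10-bearing against healthy, -1.31 and -1.27 in YUMM3.3-bearing against healthy, and 1.23 and 1.73 in B16F10-bearing against YUMM3.3-bearing mice. The direction of the difference changed with at least 1 alternative in every comparison other than B16F10-bearing against YUMM3.3-bearing spleen. There it was -0.497, with the monocytic sets the higher ones, and -0.0888 with DN names kept.

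By counts, in B16F10-bearing against YUMM3.3-bearing spleen 2 of 5 granulocytic and 4 of 7 monocytic sets were higher, beside 9.63% of all sets. In B16F10-bearing against healthy spleen it was 2 of 5 and 2 of 7, beside 16.6% of all sets. The highest granulocytic NES exceeded the highest monocytic one in these comparisons, at 2.24 and 2.02 between the tumours in spleen, 2.07 and 1.84 against healthy spleen, and 2.69 and 2.08 in B16F10-bearing against healthy marrow. No test of these differences was made, since sets are not replicates.

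Marrow and spleen were compared over the 23 sets for the same contrast, from separate libraries that may come from the same animals. For B16F10-bearing against healthy, 14 of the 23 sets had the same sign in both tissues, beside 70.2% of all sets. In YUMM3.3-bearing against healthy it was 8 of 23, beside 43.0% of all sets, and none of the 5 granulocytic sets kept its sign. Across the 23 sets Pearson's r between tissues was 0.668 for B16F10 and -0.310 for YUMM3.3, given as a description because sets share genes. The same values over all 3883 sets were 0.558 and -0.170, which had the same signs. For B16F10-bearing against YUMM3.3-bearing mice 11 of the 23 sets had the same sign in both tissues, beside 44.3% of all sets, and r was -0.030 over the 23 and -0.181 over all.

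Among the DN sets, LENAOUR_DENDRITIC_CELL_MATURATION_DN, named for dendritic cell maturation, was higher in B16F10-bearing than in healthy marrow at 1.99. In B16F10-bearing spleen it was higher than in healthy spleen at 1.73 and than in YUMM3.3-bearing spleen at 2.00 in the authors' deposited table. FOSTER_TOLERANT_MACROPHAGE_DN, genes silenced in tolerant macrophages, was lower in YUMM3.3-bearing than in healthy marrow at -1.90 and higher in B16F10-bearing than in YUMM3.3-bearing marrow at 1.96 in the authors' deposited table. GAZDA_DIAMOND_BLACKFAN_ANEMIA_MYELOID_DN, genes lower in myeloid progenitors in Diamond-Blackfan anaemia, a disorder of ribosomal protein genes, went the other way: the authors' deposited table gave it 1.92 in YUMM3.3-bearing against healthy marrow and -1.81 in B16F10-bearing against YUMM3.3-bearing marrow.

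Other DN calls were single. THEILGAARD_NEUTROPHIL_AT_SKIN_WOUND_DN was higher in B16F10-bearing than in YUMM3.3-bearing marrow at 1.79 in the authors' deposited table, beside 1.77 for its UP set. SAKAI_TUMOR_INFILTRATING_MONOCYTES_DN was higher in B16F10-bearing than in healthy marrow at 1.65, and BROWN_MYELOID_CELL_DEVELOPMENT_DN higher in YUMM3.3-bearing than in healthy spleen at 1.63, in the authors' deposited table. Of the 10 DN sets, 7 were called in at least 1 myeloid comparison and 3 in none, while 49.1% of all sets were called in at least 1. By comparison the DN counts were small: 2 of 10 were higher in B16F10-bearing than in healthy marrow, beside 20.1% of all sets, and 1 of 10 in spleen, beside 16.6%. Between the tumours 2 of 10 were higher with B16F10 and 1 lower in marrow, beside 8.09% and 8.40% of all sets. In spleen 2 of 10 were higher and 0 lower between the tumours, beside 9.63% and 1.47%.

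Among the 23, 15 sets were called in at least 1 of the 6 myeloid comparisons, 11 in at least 2 and 7 in 3, with none in more. Over all 3883 sets 49.1% were called in at least 1 of these comparisons, 31.5% in at least 2, 17.0% in at least 3 and 7.83% in at least 4. The 7 were both granule sets, the C/EBPα network, BROWN_MYELOID_CELL_DEVELOPMENT_UP, FOSTER_TOLERANT_MACROPHAGE_UP, TONKS_TARGETS_OF_RUNX1_RUNX1T1_FUSION_MONOCYTE_UP and ZHONG_SECRETOME_OF_LUNG_CANCER_AND_MACROPHAGE. The 8 sets called nowhere were PID_AMB2_NEUTROPHILS_PATHWAY, KUMAR_PATHOGEN_LOAD_BY_MACROPHAGES, SAKAI_TUMOR_INFILTRATING_MONOCYTES_UP, clusters B, C and D of the dendritic maturation series, GAZDA_DIAMOND_BLACKFAN_ANEMIA_MYELOID_UP and KAMIKUBO_MYELOID_MN1_NETWORK. In the authors' deposited table their NES in myeloid comparisons ran from -1.59 to 1.66.

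Sets outside the rule that bear on the same programme were listed by name for C/EBP factors, colony-stimulating factors, RUNX1, HOXA9, phagocytosis, reactive oxygen, antimicrobial proteins and mature cells, 33 in all without DN names. In B16F10-bearing against healthy samples 9 were higher and 1 lower in marrow, and 12 higher and 0 lower in spleen. Over all sets the shares were 20.1% higher and 5.00% lower in marrow, and 16.6% and 1.60% in spleen. Between the tumours in spleen 11 were higher with B16F10 and 1 lower, beside 9.63% and 1.47% of all sets. In YUMM3.3-bearing against healthy spleen 2 were higher and 2 lower, beside 15.6% and 5.31% of all sets. GERY_CEBP_TARGETS, targets of C/EBP factors, was higher in B16F10-bearing than in healthy marrow at 2.35, than in healthy spleen at 2.02 and than in YUMM3.3-bearing spleen at 2.17 in the authors' deposited table. IVANOVA_HEMATOPOIESIS_MATURE_CELL, named for mature blood cells, was place 1 on the B16F10 side between the tumours, at 2.55 in marrow and 2.88 in spleen. Against healthy samples it was higher with B16F10, at 2.12 in marrow and 2.75 in spleen. With YUMM3.3 it was lower in marrow at -2.17, and at -1.51 in spleen without a call, in the authors' deposited table.

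Sets for the microbe-killing equipment of phagocytes were among those higher in both tumour models in marrow. REACTOME_ANTIMICROBIAL_PEPTIDES was at 1.89 in B16F10-bearing and 2.02 in YUMM3.3-bearing against healthy marrow in the authors' deposited table. REACTOME_ROS_AND_RNS_PRODUCTION_IN_PHAGOCYTES, for the oxidative burst, was at 2.05 and 1.99 in the same 2 comparisons of the authors' deposited table. Both were lower in B16F10-bearing than in YUMM3.3-bearing marrow, at -1.83 and -1.74 in the authors' deposited table. Marrow of YUMM3.3-bearing mice had 6 of the 33 related sets higher and 2 lower, beside 9.68% and 6.52% of all sets. None of the 23 member sets was called there.

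Sets of other cell types that CD3e depletion leaves in the samples were also called, and their part in these results was not tested. Over all sets, 20.1% were higher and 5.00% lower in B16F10-bearing against healthy marrow, and 16.6% and 1.60% in spleen. The shares were 9.63% and 1.47% between the tumours in spleen, and 15.6% and 5.31% in YUMM3.3-bearing against healthy spleen. Of 30 B cell sets, 5 were higher and 7 lower in B16F10-bearing than in healthy marrow, and 2 higher and 6 lower in spleen. Between the tumours in spleen 0 B cell sets were higher and 4 lower with B16F10, in the comparison where 9 of the 23 sets were higher. Of 11 platelet sets, 5 were lower and 1 higher in YUMM3.3-bearing than in healthy spleen, and 4 were higher and 0 lower with B16F10 than with YUMM3.3. For erythroid cells, 4 of 13 sets were higher and 0 lower in B16F10-bearing against healthy spleen. Of the 17 sets named for stem cells or progenitors, B16F10-bearing marrow had 3 higher and 7 lower than healthy marrow. The 22 T and NK cell sets, for cells that the depletion targets in part, had 2 higher and 6 lower in B16F10-bearing against healthy spleen, and 2 higher and 0 lower between the tumours there.

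The melanoma lines show what such sets do in cultures to which no myeloid cells were added, per the labels. Between YUMM3.3 and B16F10 cultures 1 of the 23 sets was higher and 1 lower, beside 11.8% and 1.47% of all sets. LIAN_NEUTROPHIL_GRANULE_CONSTITUENTS was lower in YUMM3.3 than in B16F10 cultures at -1.77 in the authors' deposited table (FDR q 0.0318), with 18% of its genes in the leading edge. SHAFFER_IRF4_TARGETS_IN_ACTIVATED_DENDRITIC_CELL was higher in YUMM3.3 at 1.64 in the authors' deposited table, as were the DN sets FOSTER_TOLERANT_MACROPHAGE_DN at 1.79 and LENAOUR_DENDRITIC_CELL_MATURATION_DN at 1.59. Sets with these cell names were thus called in libraries of cultured melanoma cells too.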

How the data were processed

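RNA-seq was made from 14 libraries of CD3e-depleted cells and 6 of melanoma lines, grouped by what the labels say of tissue, tumour and cell type. The submitters' processing notes name FastQC 0.11.8, STAR 2.7.1a, featureCounts 1.6.0, DESeq2 1.22.2 and mm10, with no role given. Per the file headers, the 14 deposited reports give for each set an enrichment score, its normalised score (NES), a nominal p-value, an FDR q-value, a family-wise p, and the leading edge. The ranking metric and the permutation used by the authors are not given in the sources used here.

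Each report was read as sets higher in its first-named group, and the cell line reports by their up and down labels. Each report holds scores of 1 sign: against healthy mice, deposited scores are positive where healthy mice are named first and negative where tumour-bearing mice are, while between the tumours they are positive where B16F10 is named first, and the sign was set here from the report's name. A reversal of a whole comparison would not be seen. Counts, medians and shares were computed with Python 3.11.15 and pandas 2.3.3, and tested on simulated reports. No test was run and no p computed. Sets past FDR q below 0.05 in any comparison, and the ends of a class, were named by rule; the 8 others are named so that every member is accounted for. Members and lists were chosen with earlier results of these data known. Alternatives were FDR q below 0.25, family-wise p below 0.05, sets of 25 to 200 genes, DN names kept, excluded names kept and 1 value per first word of the name.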

Additional observations from a re-analysis of the deposited data

Results flagged for a closer look

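Sets that lay on opposite sides in B16F10-bearing and YUMM3.3-bearing against healthy animals, and whose difference between the tumours had an FDR q below 0.05 in the authors' report, were marked for a second look. That q is the authors' and does not measure the spread between animals. Of the 33 sets there were 10 in spleen and 3 in bone marrow, and all were higher with B16F10 than with YUMM3.3. Between the tumours, 9.63% of all sets were higher and 1.47% lower with B16F10 in spleen, and 8.09% and 8.40% in marrow. The share of all sets that would be marked by this rule was not computed. The 3 comparisons of a tissue share libraries, so the direction of the difference is not independent of the opposite sides.

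In spleen the authors' deposited table gave the B16F10 against YUMM3.3 difference an NES of 2.38 for BROWN_MYELOID_CELL_DEVELOPMENT_UP, 2.24 for REACTOME_NEUTROPHIL_DEGRANULATION, 2.19 for KAMIKUBO_MYELOID_CEBPA_NETWORK and 2.13 for LIAN_NEUTROPHIL_GRANULE_CONSTITUENTS. Among macrophage sets it was 2.02 for FOSTER_TOLERANT_MACROPHAGE_UP, 1.75 for ZHONG_SECRETOME_OF_LUNG_CANCER_AND_MACROPHAGE, 1.73 for COATES_MACROPHAGE_M1_VS_M2_UP and 1.75 for COATES_MACROPHAGE_M1_VS_M2_DN in the authors' deposited table. Both dendritic maturation sets were also higher, LENAOUR_DENDRITIC_CELL_MATURATION_UP at 1.73 and LENAOUR_DENDRITIC_CELL_MATURATION_DN at 2.00 in the authors' deposited table.

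In bone marrow the sets were FOSTER_TOLERANT_MACROPHAGE_DN at 1.96, THEILGAARD_NEUTROPHIL_AT_SKIN_WOUND_DN at 1.79 and THEILGAARD_NEUTROPHIL_AT_SKIN_WOUND_UP at 1.77 in the authors' deposited table.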

How the results depend on the processing

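No paired analysis was possible because the files hold no value per library, and for the same reason no library could be left out. Libraries of 2 or 3 a group and unknown depth limit every value. In the order B16F10-bearing against healthy, YUMM3.3-bearing against healthy and B16F10-bearing against YUMM3.3-bearing, counts of the 23 sets changed by more than 1.5 times as follows. At FDR q below 0.25, marrow had 5 lower in the first, 5 higher and 4 lower in the second and 6 higher in the third. Spleen then had 12 higher in the first, 2 higher and 11 lower in the second and 1 lower in the third, and 9 were higher in the YUMM3.3 line. With a family-wise p below 0.05, marrow had 4 higher and 1 lower in the first and 0 higher in the third. Spleen had 3 higher, then 0 in either direction, then 4 higher, and the lines 0 in either direction. Of all sets, 4.82% were then higher and 0.850% lower in the first of marrow. In spleen these shares were 5.25% and 0.489%, 6.85% and 0.335%, and 1.42% and 0.386%, in order. Keeping excluded names gave 1 lower in the second and 2 higher in the third marrow comparison. Sets of 25 to 200 genes left 0 lower in the YUMM3.3 line, and leaving out fusion sets, chosen after seeing the data, left 1 lower in the first marrow comparison. Where no share of all sets stands beside a count here, it was not computed. Such a count cannot show whether the 23 sets differed from all sets.

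The granulocytic minus monocytic median was less stable. With sets of 25 to 200 genes it was -0.616 (2.89 as reported) and -0.0416 (0.0524) in the first 2 marrow comparisons, and -0.457 (0.188) and 0.101 (-0.0404) in the first 2 of spleen. With DN names kept it was 0.0123, -0.0416 and 1.49 (0.148) in marrow and -0.137 in the first of spleen. With 1 value per first word it was 1.02 in the second and -0.874 in the third of marrow. Without fusion sets it was 2.21 and -0.752 there, 0.0302 in the second of spleen and -1.05 (0.210) in the lines. The cause was not tested. Of the 7 differences, that of B16F10-bearing against YUMM3.3-bearing spleen, -0.497, kept its sign and stayed within 0.5 under all alternatives run. That tolerance is as wide as the value itself. The difference was -0.0888 with DN names kept, -0.118 without fusion sets and -0.269 with 1 value per first word. With sets of 25 to 200 genes it was -0.666.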

Other observations

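Of the source experiments, 10 gave both an UP and a DN set to the 33. Opposite signs were listed for 6 of 10 pairs in B16F10-bearing against healthy marrow, 4 of 10 in YUMM3.3-bearing against healthy marrow and 5 of 10 between the tumours there. In spleen it was 2 of 10, 6 of 10 and 1 of 10 in the same order, and 4 of 9 in the lines. Over the 701 such pairs in the myeloid reports the share with opposite signs ran from 26.2% to 56.6%. Both sets of the dendritic maturation pair, for example, were higher with B16F10 than with YUMM3.3 in spleen.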
